A study of Mus musculus with 21 samples.

Results

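Testis retrogenes of the mouse and the X-linked genes they were copied from were followed in RNA-seq of 12-dpp germ cells (dpp, days post-partum). The members were chosen by name as 5 pairs, Pgk1 and Pgk2, Pdha1 and Pdha2, Utp14a and Utp14b, Cstf2 and Cstf2t, and Cetn2 and Cetn1. All 10 were present in the expression table, each on 1 row, out of 37620 genes. The values are FPKM, that is fragments scaled to the length of the transcript and to the library, so that 2 genes of different length can be compared within a library.

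The series holds 21 samples, of which 12 are RNA-seq libraries and the others, made for mapping PRDM9 binding and chromatin marks, were not analysed here. All 12 libraries came from total RNA of cells labelled as spermatocytes, taken from C57BL/6J mice at 12 days post-partum. The cells were germ cells enriched from testes after collagenase and trypsin digestion, and no sort by a marker is described. The libraries are named for 4 samples (186wt, 343wt, 444wt, 456wt), each of which has 3. The labels give neither a treatment nor a contrast between the numbers, and do not say whether the libraries of a number are separate animals or the same RNA. The authors' methods describe RNA from 4 replicates of germ cells and do not mention 3 libraries for each. The 3 libraries were therefore averaged, each mean ± SD is over 4 samples, and p-values between samples measure only the spread between libraries, which may be technical.

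A retrogene arises when a messenger RNA is copied into DNA and inserted elsewhere in the genome, so its coding part lacks the introns of the parent. Many retrogenes that are active in the testis are autosomal copies of X-linked housekeeping genes. The X chromosome is silenced in the sex body of pachytene spermatocytes, and such copies are known for supplying the function at and after that stage.

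Depth was recovered from the steps in the low FPKM values and came to 13.04 to 18.2 M (mega) fragments per library, 183.88 M in all. The preparation was mixed. Early meiotic markers (10 genes, among them Sycp1, Stag3 and Spo11) summed to 305 to 507 FPKM, lowest in 343wt and highest in 444wt. Spermatogonial markers (8 genes) summed to 538 to 786 FPKM, and all 9 markers of Sertoli cells, the somatic nurse cells, were detected with the lowest sum in 444wt (2568 FPKM) and the highest in 343wt (4612 FPKM). Of 10 markers of pachytene cells, 9 had a mean of at least 0.1 FPKM, with sums from 78.3 (343wt) to 109 FPKM (456wt), and 7 of the 10 were highest in 456wt. Of 10 round spermatid markers, 6 averaged 0.1 FPKM or more. Prm2 and Catsper1 were at 0 in every library. Tnp1 (0.960 FPKM), Prm1 (0.163 FPKM) and Tnp2 (0.126 FPKM), which also define these cells, had low values and were highest in 444wt. Izumo1 (1.32 FPKM) and Tssk1 (0.85 FPKM) were highest in 444wt too. Spaca1, the highest of the list (2.09 FPKM), was highest in 456wt, and Acrv1 (0.04 FPKM) and Catsper3 (0.0958 FPKM) in 186wt. The paper describes germ cells at this age as enriched in early meiotic stages, from pre-leptotene to zygotene. Values as low as those of the spermatid list do not show that spermatids were present. By the spermatogonial and Sertoli markers, the label of spermatocytes covers cells of several types. In bulk RNA fewer cells of a type and less RNA per cell cannot be told apart.

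The labels of the 10 genes as parents and copies were checked against the annotation of NCBI build 37. The 5 parents lie on the X chromosome with 5 to 15 coding exons. The copies lie on autosomes and each has its coding sequence in 1 exon. Pgk2 (chr17:40343963-40345554, minus strand), Pdha2 (chr3:140872968-140875319, minus strand) and Cstf2t (chr19:31157331-31161080, plus strand) are single-exon genes. Cetn1 has 2 exons and Utp14b (chr1:78654613-78664163, plus strand) has 4, of which the others are untranslated. The parents are Pgk1 (chrX:103382439-103399038, plus strand), Pdha1 (chrX:156560141-156576345, minus strand), Utp14a (chrX:45610039-45635630, plus strand), Cstf2 (chrX:130593726-130621358, plus strand) and Cetn2 (chrX:70158871-70163750, minus strand).

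Whether the reads of a copy could be taken for those of its parent decides how far the levels can be compared. The aligned coding sequences were identical at 79.3% of bases for Pgk2 and Pgk1, 75.6% for Pdha2 and Pdha1, 77.8% for Utp14b and Utp14a, 75.2% for Cstf2t and Cstf2 and 79.7% for Cetn1 and Cetn2. Reads were 100 bases long and those with 2 or more mismatches had been removed. In the most similar 100 coding bases of the pairs the copies differed by 14, 10, 8, 14 and 12 bases, in the same order. Those stretches are shown for 4 pairs because they are the places where a read could most easily be misassigned. They are written in the sense of the gene from NCBI build 37, and capitals mark the bases that differ between parent and copy.
Pgk1 (chrX:103389730-103389829, plus strand, exon 3): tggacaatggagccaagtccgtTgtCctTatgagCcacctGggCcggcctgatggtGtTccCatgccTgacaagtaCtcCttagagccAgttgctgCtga
Pgk2 (chr17:40345230-40345329, minus strand, exon 1): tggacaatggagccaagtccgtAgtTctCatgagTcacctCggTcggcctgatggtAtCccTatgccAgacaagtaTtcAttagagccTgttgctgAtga
Pdha1 (chrX:156568143-156570075, minus strand, end of exon 3 joined to exon 4): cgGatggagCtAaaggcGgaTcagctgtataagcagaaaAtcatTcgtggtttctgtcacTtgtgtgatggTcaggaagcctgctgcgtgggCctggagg
Pdha2 (chr3:140874391-140874490, minus strand, exon 1): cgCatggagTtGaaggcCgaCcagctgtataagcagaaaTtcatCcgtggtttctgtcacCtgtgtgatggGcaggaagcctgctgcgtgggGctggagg
Utp14a (chrX:45631708-45631914, plus strand, end of exon 13 joined to exon 14): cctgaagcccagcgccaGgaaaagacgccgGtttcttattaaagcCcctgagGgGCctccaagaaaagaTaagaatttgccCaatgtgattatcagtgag
Utp14b (chr1:78662899-78662998, plus strand, exon 4): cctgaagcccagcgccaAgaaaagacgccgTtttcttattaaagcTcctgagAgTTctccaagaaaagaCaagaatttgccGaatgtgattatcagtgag
Cstf2 (chrX:130595515-130595614, plus strand, exon 3): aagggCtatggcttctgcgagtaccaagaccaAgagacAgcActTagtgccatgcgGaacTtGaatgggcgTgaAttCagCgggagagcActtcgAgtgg
Cstf2t (chr19:31157724-31157823, plus strand, exon 1): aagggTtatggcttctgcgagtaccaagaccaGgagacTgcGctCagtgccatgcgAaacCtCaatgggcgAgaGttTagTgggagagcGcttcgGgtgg

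When every 100-base window of the members' transcripts was aligned to the transcripts of all genes in the table with at most 1 mismatch, 0 windows of any copy matched its parent and 0 of any parent matched its copy. Pgk2, Pdha2, Cstf2t, Cetn1 and Cetn2 shared 0 windows with any other gene. Pgk1 shared 51.9% of its windows with other genes, nearly all with the processed copies Pgk1-rs7 and Gm5537. Those copies stood at 0.113 and 0.149 FPKM. How the reads of the shared windows were divided was not tested, and in that respect the level of Pgk1 is less certain than the others. The remaining shared windows lay mostly where genes overlap, 9.05% for Pdha1, 7.42% for Utp14a, 3.15% for Cstf2 and 3.01% for Utp14b.

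The copies were lower than their parents in all 5 pairs, in 4 of 4 samples each, and by amounts that ranged from about 1.98-fold for Cstf2t to 502-fold for Pgk2 (ratios of mean FPKM). In no pair did the highest library of the copy reach the lowest library of the parent. The exact two-sided sign-flip permutation test over the 4 samples gave its smallest possible p for each pair, which is 1 in 8 with 4 samples and cannot pass the threshold. The 5 copies differed widely in level. Cstf2t was near the level of Pdha1, Pdha2 and Utp14b were near 5 FPKM, and Cetn1 and Pgk2 were below 1 FPKM in the mean. Cetn1 was above Pgk2 in 12 of 12 libraries, and their sample ranges did not overlap.

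**Figure D1:**
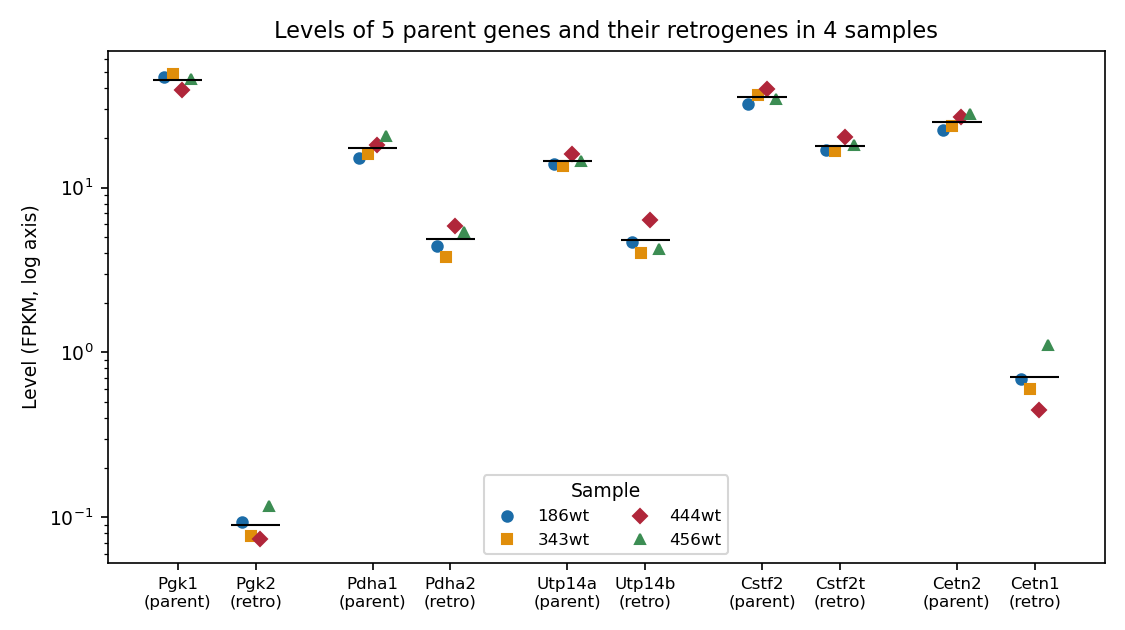
Level in FPKM (log axis) of each parent gene and its retrogene in the samples 186wt, 343wt, 444wt and 456wt, each point being the mean of 3 libraries and each line the mean of the 4 samples. Every copy sits below its parent, and Pgk2 (0.0733 to 0.117 FPKM) sits lowest of the 10 genes.

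Pgk1 and Pgk2 encode phosphoglycerate kinase, a glycolytic enzyme that makes ATP, and Pgk2 is the form of later meiotic cells and sperm. Pgk1 was at 47.1 FPKM in 186wt, 48.9 in 343wt, 38.9 in 444wt and 45.9 in 456wt, with a mean of 45.2 ± 4.37 FPKM (SD, n = 4). It was the highest of the 10 genes, above 94.0% of all genes in the table, and 444wt was the low sample. Pgk2 was at 0.0933, 0.0767, 0.0733 and 0.117 FPKM in the same order, a mean of 0.0900 ± 0.0198 FPKM (SD, n = 4). Its values amounted to 25 fragments over all 12 libraries, 0 to 5 per library, and it was at 0 in 1 library of 343wt. From these fragments the pooled level was 0.0890 FPKM with an exact Poisson 95% interval of 0.0576 to 0.131 FPKM, which covers counting error only. The 4 samples held 6, 6, 5 and 8 fragments. The exact Poisson 95% intervals were 0.0235 to 0.169 FPKM in 444wt and 0.0503 to 0.230 FPKM in 456wt. These overlap widely, so a small difference of Pgk2 between samples could not be seen at this depth. Within the pair, Pgk2 contributed 0.199% ± 0.0404 (SD, n = 4) of the summed FPKM, and Pgk1 exceeded it 393-fold in 456wt to 637-fold in 343wt.

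Cetn1 and Cetn2 encode centrins, small calcium-binding proteins of the centrioles, of which Cetn1 is the form of male germ cells and of ciliated cells. Cetn2 was at 22.4 FPKM in 186wt, 23.5 in 343wt, 26.7 in 444wt and 28.0 in 456wt (25.2 ± 2.62 FPKM, SD, n = 4). Cetn1 was at 0.687, 0.597, 0.447 and 1.11 FPKM in the same order (0.711 ± 0.286 FPKM, SD, n = 4). The highest Cetn1 level was in 456wt and the lowest in 444wt, a range of 2.49-fold and the widest among the 10 genes. The fragments behind these values were 34 in 186wt, 36 in 343wt, 24 in 444wt and 59 in 456wt. The exact Poisson 95% intervals, which cover counting error only and not the spread between animals or preparations, were 0.288 to 0.668 FPKM in 444wt and 0.845 to 1.43 FPKM in 456wt. Cetn1 formed 2.73% ± 0.914 (SD, n = 4) of the pair.

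**Figure D2:**
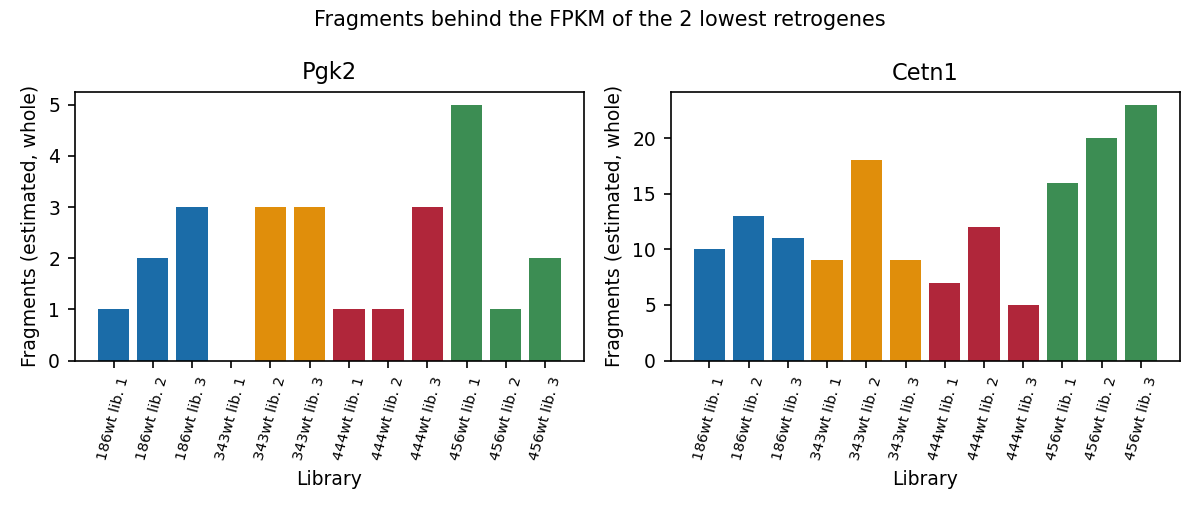
Whole fragments estimated for Pgk2 and Cetn1 in each of the 12 libraries, coloured by sample, with the vertical axis from 0. Pgk2 has 0 to 5 fragments per library, and the 3 libraries of 456wt have 16 to 23 fragments of Cetn1 against 5 to 12 in those of 444wt.

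Pdha1 and Pdha2 encode the catalytic alpha subunit of pyruvate dehydrogenase E1, the entry of pyruvate into the mitochondrial citric acid cycle. Pdha1 was at 15.2 FPKM in 186wt, 16.0 in 343wt, 18.04 in 444wt and 20.6 in 456wt (17.5 ± 2.41 FPKM, SD, n = 4). Pdha2 was at 4.43, 3.80, 5.87 and 5.35 FPKM (4.86 ± 0.923 FPKM, SD, n = 4), and thus higher in both 444wt and 456wt than in the other samples. Its share of the pair was 21.7% ± 2.34 (SD, n = 4). Pdha2 has no annotated gene on either strand at its position. Pdha1 overlaps Map3k15 on the opposite strand over 603 exon bases, and Map3k15 stood at 8.12 ± 1.97 FPKM (SD, n = 4).

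Utp14a and Utp14b encode a component of the small subunit processome, the particle that processes ribosomal RNA in the nucleolus, and loss of Utp14b is known as the juvenile spermatogonial depletion mutation. Utp14a was at 13.9 FPKM in 186wt, 13.4 in 343wt, 16.0 in 444wt and 14.6 in 456wt (14.5 ± 1.12 FPKM, SD, n = 4). Utp14b was at 4.66, 4.003, 6.37 and 4.25 FPKM (4.82 ± 1.07 FPKM, SD, n = 4), with 444wt above the others. It formed 24.8% ± 2.71 (SD, n = 4) of the pair. Utp14b lies within Acsl3, an acyl-CoA synthetase gene on the same strand, and 206 of its 3755 exon bases (5.49%), none of them coding, are also exon bases of Acsl3. Acsl3 was at 31.8, 30.5, 41.9 and 38.9 FPKM in 186wt, 343wt, 444wt and 456wt. It was thus high in 444wt, as was Utp14b, and also in 456wt, where Utp14b was not. What Acsl3 reads in the shared bases add to Utp14b was not tested.

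Cstf2 and Cstf2t encode the RNA-binding subunit of the cleavage stimulation factor, which acts at sequences downstream of the polyadenylation site, and Cstf2t is the form known from germ cells. Cstf2 was at 32.1 FPKM in 186wt, 36.3 in 343wt, 39.9 in 444wt and 34.3 in 456wt (35.7 ± 3.32 FPKM, SD, n = 4). Cstf2t was at 16.9, 16.6, 20.4 and 18.1 FPKM (17.997 ± 1.70 FPKM, SD, n = 4). It was the highest of the 5 copies and formed 33.6% ± 1.51 (SD, n = 4) of its pair, the largest share among them. Cstf2t lies within Prkg1, a kinase gene on the opposite strand that stood at 2.71 ± 0.854 FPKM (SD, n = 4), and the annotated exons share 0 bases.

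In order of mean level the 10 genes ran Pgk1, Cstf2, Cetn2, Cstf2t, Pdha1, Utp14a, Pdha2, Utp14b, Cetn1 and Pgk2. The sample ranges of Pgk1 and Cstf2, of Cstf2t and Pdha1, of Pdha1 and Utp14a, and of Pdha2 and Utp14b overlapped, and those of the other neighbours did not. Among the overlapping neighbours, Pdha1 was above Utp14a in 4 of 4 samples and 12 of 12 libraries. Pgk1 was above Cstf2 in 3 of 4 samples, Cstf2t above Pdha1 in 3 of 4 and Pdha2 above Utp14b in 1 of 4, so these neighbours did not keep 1 order. The relative spread between samples was widest for Cetn1 (coefficient of variation 40.2%), followed by Utp14b (22.2%) and Pgk2 (22.0%), and it was lowest for Utp14a (7.76%).

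**Figure D3:**
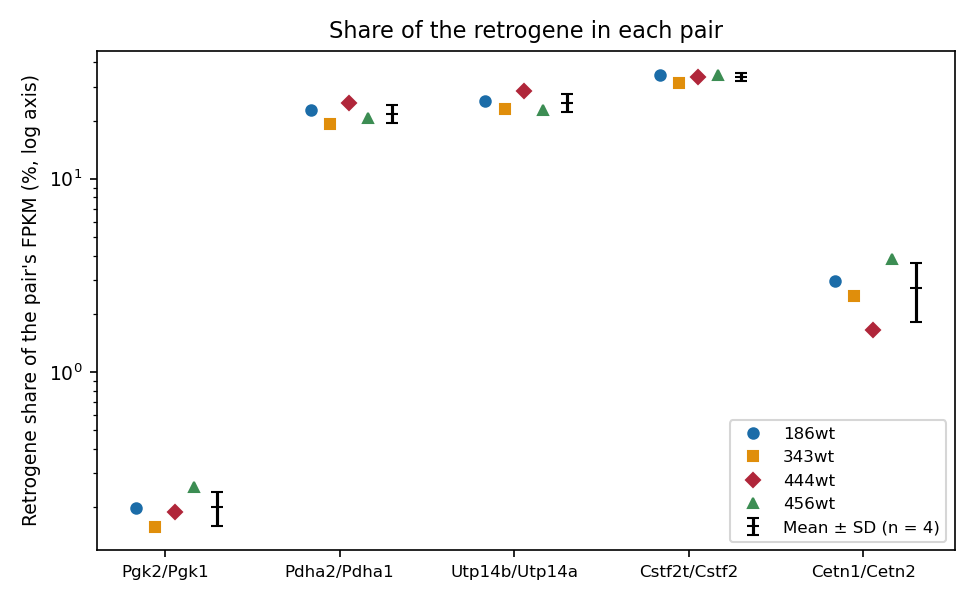
Share of the retrogene in the summed FPKM of each pair (percent, log axis) in the 4 samples, with the mean and SD over them (n = 4). The share is 0.157 to 0.254% for Pgk2, 1.64 to 3.83% for Cetn1, 19.2 to 24.5% for Pdha2, 22.6 to 28.5% for Utp14b and 31.4 to 34.5% for Cstf2t.

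The 4 samples differed from one another in much of the transcriptome. The moderated F-test of limma on log2(FPKM + 0.1) was fitted to the 20795 genes that averaged 0.1 FPKM or more. It called 58.2% of these genes (Benjamini-Hochberg adjusted over all genes, threshold 0.05). Of the 10 members, 9 were tested and all 9 were called, while Pgk2 was below the minimum. Genes of low level were called less often. Fitted to the 14348 genes that averaged 1 FPKM or more, the same test called 77.6% of genes and 8 of 8 members. The adjusted p-values of limma were 4.10e-05 for Pgk1, 5.51e-05 for Utp14b, 0.000170 for Cstf2t, 0.000472 for Pdha1, 0.000863 for Cetn2, 0.00192 for Pdha2, 0.00206 for Utp14a, 0.0281 for Cetn1 and 0.0345 for Cstf2. Much of this came with 1 sample. Without 444wt only Pdha1, Pdha2 and Cetn2 were called, 3 of 9 members where 47.7% of all genes were called, and the adjusted p-value was 0.173 for Pgk1, 0.106 for Utp14a, 0.128 for Utp14b, 0.176 for Cstf2, 0.0505 for Cstf2t and 0.0641 for Cetn1. Without 456wt, Cetn1 was not called either (limma, adjusted p = 0.352), and without 186wt Cstf2 was not (adjusted p = 0.153). The call of Cstf2 was also lost on leaving out any single library of 186wt, library 1 or 3 of 343wt, or library 2 or 3 of 444wt (0.0507 to 0.102). That of Cetn1 was lost without library 1 or 3 of 444wt or library 2 or 3 of 456wt (0.0648 to 0.0986).

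Pairwise contrasts from the same fit, with values adjusted over all genes and 6 contrasts, showed which samples stood apart. The shares of all genes given for contrasts cover genes that averaged 0.1 FPKM or more. A share for genes of 1 FPKM or more, as given for the F-test, was not taken by contrast. Between 444wt and 343wt, 6 of the 9 tested members were called against 46.3% of all genes. Here Utp14b rose by 0.66 ± 0.0743 (log2 difference ± SE, limma adjusted p = 2.77e-05), Pdha2 by 0.61 ± 0.109 (0.000905), Cstf2t by 0.29 ± 0.0385 (9.18e-05) and Utp14a by 0.25 ± 0.0440 (0.000808). Cetn2 rose by 0.18 ± 0.0535 (limma adjusted p = 0.0189), a call lost without library 1 of 343wt or library 1 or 2 of 444wt (up to 0.0714). The median of all genes tested was itself 0.14 higher in 444wt in this contrast. Pgk1 fell by 0.33 on the log2 scale (SE 0.0355, limma adjusted p = 1.97e-05).

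Compared with 444wt, the sample 456wt had 6 of 9 members called, against 29.9% of all genes. Cetn1 was higher in 456wt by 1.19 ± 0.304 on the log2 scale (limma adjusted p = 0.00901) and Pgk1 by 0.24 ± 0.0355 (0.000262). Utp14b fell by 0.57 (SE 0.0743, limma adjusted p = 8.36e-05) and Cstf2t by 0.17 (SE 0.0385, 0.00511). Pdha1 was higher in 456wt by 0.19 ± 0.0645 (limma adjusted p = 0.0382) and Utp14a lower (log2 difference -0.13 ± 0.0440, 0.0361), and each of these calls was lost on leaving out any of 5 of the 12 libraries. These were libraries 1 of 186wt, 3 of 343wt, 2 of 444wt and 1 and 3 of 456wt for Pdha1 (up to 0.138). For Utp14a they were libraries 2 and 3 of 444wt and all 3 of 456wt (up to 0.126).

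The other contrasts gave 8 of 9 members for 444wt against 186wt (background 41.6%), 5 of 9 for 456wt against 343wt (41%; all 5 were higher, as were 27% of all genes), 2 of 9 for 456wt against 186wt (40.5%) and 1 of 9 for 343wt against 186wt (24.1%). The single call of the last contrast, Utp14b (limma adjusted p = 0.0393), was lost on leaving out library 1 or 2 of 186wt, library 1 or 2 of 343wt, any library of 444wt or library 2 of 456wt (up to 0.138), which left 0 members called. Of the 5 calls for 456wt against 343wt, Cstf2t was lost without library 1 or 3 of 343wt or of 456wt (limma adjusted p up to 0.0810). Cetn1 was lost without any library of 186wt, library 1 or 3 of 343wt, library 1 of 444wt or library 2 or 3 of 456wt (up to 0.150), and without library 1 of 343wt 3 of 9 members were called. The 6 contrasts share samples and are not independent of each other. Among the 28 member calls in all, Pgk1 was lower in 444wt than in each of the other samples, whereas every called difference of Utp14b with 444wt had 444wt higher. Cstf2t and Utp14a likewise had 444wt higher in all of their contrasts with it.

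**Figure D4:**
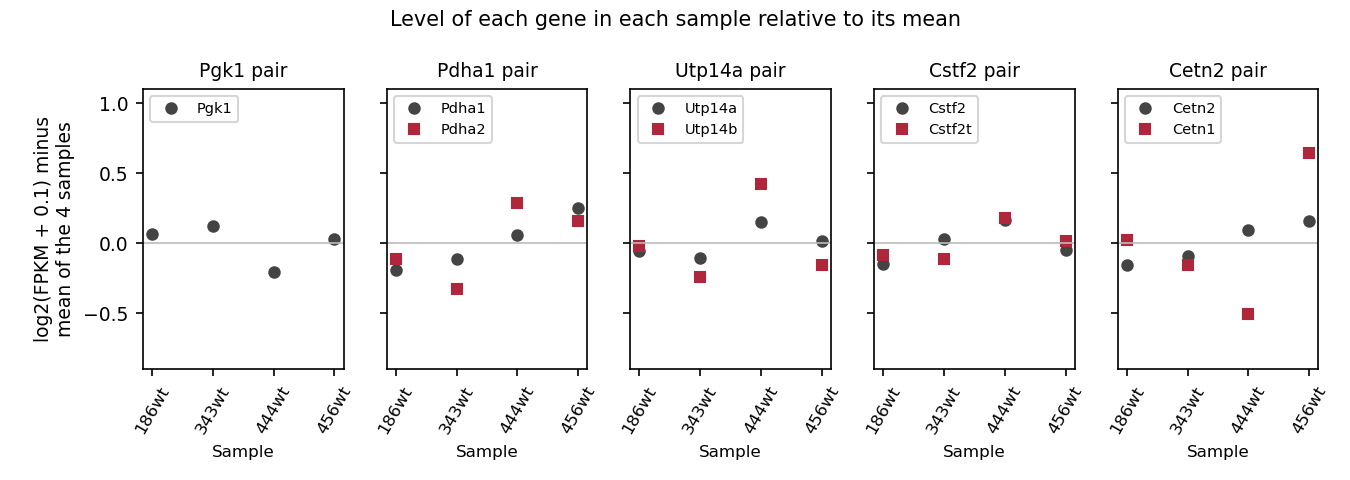
Level of each tested gene in each sample relative to its mean over the 4 samples, on the log2(FPKM + 0.1) scale, with parents as circles and retrogenes as squares (Pgk2 was not tested and is left out). Utp14b departs upwards in 444wt, Cetn1 is lowest in 444wt and highest in 456wt, and Pgk1 is lowest in 444wt.

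Whether a copy and its parent moved together was asked of their log2 ratio, with an exact permutation test over all 369600 partitions of the 12 libraries into 4 sets of 3. The 5 p-values are unadjusted. For Utp14b and Utp14a the ratio lay between -1.76 in 456wt and -1.31 in 444wt, and the samples differed (exact p = 0.000519). Leaving out any 1 sample gave exact p-values of 0.00357 to 0.0286, the highest without 444wt. For Pdha2 and Pdha1 the ratio was lowest in 343wt (-2.05) and highest in 444wt (-1.61), with exact p = 0.0223. This difference was lost without the sample 343wt (0.0857) and without library 1 (0.0535) or library 2 (0.0533) of 444wt, all by the exact test. For Cetn1 and Cetn2 the ratio ran from -5.67 in 444wt to -4.54 in 456wt (exact p = 0.0403). It was lost without 186wt (exact p = 0.0821), 444wt (0.214) or 456wt (0.114). It was also lost on leaving out any library of 186wt, library 1 of 343wt, library 1 or 3 of 444wt or library 2 or 3 of 456wt (exact p = 0.0507 to 0.113). For Cstf2t and Cstf2 the ratio varied by 0.21 between samples and the test did not separate them (exact p = 0.157), except without library 3 of 456wt (exact p = 0.0243). For Pgk2 and Pgk1 the exact p was 0.816, on the 25 fragments of Pgk2.

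The cell markers moved with some of these values. In 444wt, where Utp14b was highest, the early meiotic sum was highest (507 FPKM, with 9 of 10 markers highest there). The Sertoli sum was lowest in 444wt (2568 FPKM) and nearly as low in 456wt (2728 FPKM), where Utp14b was at 4.25 FPKM. The median of the Sertoli markers was lower in 456wt (84.2 FPKM) than in 444wt (88.2 FPKM). The spermatogonial sum was also highest in 444wt (786 FPKM, with 6 of 8 markers highest there). From 343wt to 444wt, 10 of 10 early meiotic markers rose, 6 of 8 spermatogonial markers rose and 1 fell, and 9 of 9 Sertoli markers fell. Of the 6 peritubular myoid markers, 5 rose and 0 fell, with sums of 261 FPKM in 343wt and 695 FPKM in 444wt. Among the other somatic markers, 6 of 6 Leydig, 5 of 6 endothelial and 5 of 6 macrophage markers fell and 0 rose. Of all genes, 29.3% rose and 17% fell in this contrast. The median of the pachytene markers was 1.27 FPKM in 444wt, where Cetn1 was lowest, against 5.81 FPKM in 456wt, where it was highest. Of the 9 pachytene markers tested, 6 rose and 1 fell from 444wt to 456wt, among all genes 15.8% and 14.1%. Ldhc, the lactate dehydrogenase of meiotic cells, stood at 1.84 FPKM in 444wt and at 13.5 FPKM in 456wt, whereas Mybl1, a transcription factor of pachytene cells, stood at 8.56 and 7.003 FPKM and Tbpl1 at 31.1 and 31.2 FPKM. The sum of the pachytene markers was lowest in 343wt, not in 444wt. All 6 endothelial and all 6 peritubular myoid markers were also highest in 456wt, where their sums were 37.9 and 1161 FPKM. Leydig markers summed to 16.1 FPKM in 444wt, their lowest, and 110 FPKM in 343wt, their highest, and macrophage markers to 7.32 and 32.7 FPKM. Counts of markers highest in a sample were not set beside the share of all genes highest there. The part of these cell types in the members' differences was not tested.

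The genes that work with the members were given by list, with the count in each direction between 444wt and 343wt beside the background of 29.3% higher and 17% lower among all genes. Of 28 genes of the small subunit processome, in which Utp14a and Utp14b act, 26 rose, 0 fell and the median log2 difference was 0.25. The list ran from Utp23 (6.08 FPKM) to the methyltransferase Fbl (176 FPKM). Of 15 other genes of messenger RNA 3' end processing, 12 rose and 1 fell, with a median of 0.27. Among the 11 genes of the pyruvate dehydrogenase complex and its regulators, 1 rose and 5 fell (median -0.10). Of 17 tested glycolytic genes other than the phosphoglycerate kinases, 4 rose and 7 fell (median -0.11), while Pklr, the liver and red cell pyruvate kinase, was below 0.1 FPKM. Of the 4 other centrin genes and centrin-binding genes, 2 rose. The median of all genes tested was 0.14 in the same contrast. The background covers genes that averaged 0.1 FPKM or more, and no share for genes of similar level was taken.

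Direct partners were set beside the sum of each pair on the FPKM scale. Pdhb, the beta subunit with which the alpha subunit pairs, was at 72.4 ± 3.83 FPKM (SD, n = 4), and exceeded the sum of Pdha1 and Pdha2 by 3.28 ± 0.349-fold (SD, n = 4). Cstf3, the subunit that binds the product of Cstf2, was at 25.3 ± 2.76 FPKM (SD, n = 4), or 0.472 ± 0.0373 of the sum of Cstf2 and Cstf2t. Cetn3, a more distant centrin, was at 55.8 ± 4.06 FPKM (SD, n = 4), above Cetn2 in every sample. Cetn4, at 3.15 ± 0.894 FPKM (SD, n = 4), was below Cetn2 and above Cetn1 in every sample.

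The genes with the most similar course over the 12 libraries were taken by Pearson's r of log2(FPKM + 0.1) among the 14348 genes that averaged 1 FPKM or more. These values describe 12 libraries of 4 samples, and the libraries of a sample may come from the same RNA. Utp14b was closest to Slk (r = 0.979), a kinase gene, and Sycp1 (r = 0.976), which encodes the transverse filament of the synaptonemal complex. Cstf2t was closest to Prdm4 (0.981) and Slc16a11 (0.980), and Pdha2 to Plekhg4 (0.948) and Gabpb1 (0.947). Cetn1 was closest to Rerg (0.947) and Ndufb5 (0.888).

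Other pairs of an X-linked parent and an autosomal copy were listed from background knowledge, and 13 were present in the table. In 11 of them the copy was below the parent in 4 of 4 samples. Whether Tktl1 is the direct parent of Tktl2 is uncertain, and without this pair it was 10 of 12, with a median log2 ratio of -2.30, a count chosen after seeing the data. The log2 ratio of copy to parent ranged from -7.31 for Ubl4b to 1.70 for Klhl9, with a median of -2.21, and 8 of the 13 copies had a mean of at least 1 FPKM. The 5 pairs described here lay between -7.90 for Pgk2 and -0.98 for Cstf2t on the same scale. The exceptions were Klhl9, above Klhl13 in 4 of 4 samples (20.7 against 6.46 FPKM), and Rbmxl2, at 24.0 FPKM against 16.3 FPKM for Rbmx, which was below its parent in 1 of 4 samples. Among the 13 pairs, Gk2 and Gykl1 share the parent Gyk.

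The promoters were compared by their CG dinucleotides, a motif read the same on both strands, in the 300 bases around the gene start given by RefSeq on GRCm38.p6. Of the 10 members, 9 had an entry, Cetn1 being the other. The parents held 19 (Cetn2), 21 (Pdha1, Utp14a) or 24 (Pgk1, Cstf2) of them, against a median of 7 over all 32851 promoters. Among the copies, Pgk2 and Pdha2 held 4 each, and 31.4% of all promoters held fewer. Cstf2t held 26 and Utp14b 40, and 83.1% and 96.1% of all promoters held fewer. In the GENCODE positions Utp14b starts at base 78654613, close to the start of its host gene Acsl3 at 78654400 on the same strand. The count for Utp14b may therefore not be a trait of the copy alone, and the part of the Acsl3 promoter in it was not tested. Pgk2 (0.0900 FPKM) and Pdha2 (4.86 FPKM) had the same number of CG dinucleotides and levels that did not overlap in any library. Whether the CG counts and the levels of the copies go together was not tested, with 4 copies and no entry for Cetn1.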

How the data were processed

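RNA-seq was available for 12 libraries of 12-dpp germ cells. The authors aligned reads to the NCBI build 37 transcriptome with BowTie 0.12.9, kept reads with fewer than 2 mismatches and calculated the deposited FPKM with RSEM 1.2.8, assuming fragments of 280 ± 50 bp. The values are rounded to 2 decimals and a strand setting is not given in the sources used here, so opposite-strand overlaps can share reads.

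Columns were assigned by name and the 3 libraries of a sample number averaged. Positions are from GENCODE M1. The 4 samples were compared by limma 3.58.1 (R 4.3.3), using lmFit, eBayes and a mean-variance trend, on log2(FPKM + 0.1) of genes that averaged 0.1 FPKM or more, threshold 0.05. Fold changes on this scale understate those of low genes. Ratios within pairs were tested by exact sign-flip and exact permutation tests in Python 3.11.15 with scipy 1.17.1. Read sharing was found by aligning 100-base windows with bwa 0.7.19, at most 1 mismatch.

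Depth was estimated from single-transcript genes of 600 to 1500 bp whose low FPKM fall on multiples of 1 fragment. Between 69.5 and 72.6% of the low values in a library did so within the rounding of the table, against 12.1 to 16.9% by chance. The fragments of Cetn1 and Pgk2 came within 0.00518 FPKM of whole numbers. Intervals are exact Poisson at 95%.

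Alternatives changed the pseudocount, the minimum level, the scaling, the trend and the replicate block, and left out each library or sample. Genes were named by rule: the 10 members, overlapping genes, the 2 most similar genes of each tested retrogene, the highest and lowest of a list, and Pdhb, Cstf3 and Cetn3. Other single genes (among them Cetn4, Ldhc, Mybl1, Tbpl1, the spermatid markers, Klhl9 and Rbmxl2) were chosen after their values were seen. The members and lists were chosen with earlier results of these data known. The scripts were tested on simulated data.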

Additional observations from a re-analysis of the deposited data

How the results depend on the processing

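Every copy stayed below its parent in every sample with each pseudocount, with the median of the libraries and on leaving out each library or sample. The size of the lowest ratios followed the pseudocount. The log2 ratio of Pgk2 to Pgk1 was -8.84 with a pseudocount of 0.01 and -5.40 with 1, and that of Cetn1 to Cetn2 was -3.94 with 1. With a pseudocount of 1 the difference of the Pgk2 to Pgk1 ratio between samples had an exact p of 0.0257. At that setting the ratio is close to 1 over the Pgk1 level. Leaving out a library or a sample gave 3 to 9 members called, and 47.7 to 56.7% of all genes, both lowest without 444wt. The same omissions gave exact p-values of 0.00714 to 0.0857 for the Pdha2 to Pdha1 ratio, 0.0243 to 0.811 for Cstf2t to Cstf2 and 0.00935 to 0.214 for Cetn1 to Cetn2. They gave 0.000325 to 0.0286 for Utp14b to Utp14a, which kept its call throughout.

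Without a minimum level 7 of 10 members were called, and 28.6% of all 37620 genes, Cetn1 (limma, adjusted p = 0.0969) and Cstf2 (0.129) being lost, and Cstf2 was also lost with quantile normalization (0.0632) and without the trend (0.0717). Over all alternatives Cstf2 was lost in 12 of 24 and Cetn1 in 7 of 23. All 28 pairwise calls kept their direction under rescaling to a common total, with 26 still called, and under quantile normalization, with 23 still called. Same-numbered libraries of different samples had correlations of -0.0648 to 0.128 (18 pairs) in their deviations, and other-numbered libraries -0.128 to 0.0835 (36 pairs). The ranges overlap, and low correlations cannot exclude a shared batch, so whether the numbers pair the samples was not settled. The fit with the replicate block called 11774 genes, against 12107, and 9 members.

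Depth limits Pgk2, where 1 fragment is worth 0.0360 to 0.0502 FPKM in a library. The tests describe these 4 samples only.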
